A study of Homo sapiens with 48 samples.

Results

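GLIS3 CRISPRko fibroblasts were compared with CRISPRko control fibroblasts after 24 h of TGFβ and IL-1β. The members are the 3 knockout and 3 control libraries of that time, taken by the group, time and replicate in the sample labels, and they make up 6 of the 48 RNA-seq libraries of the series. All cells were human IL11mNG fibroblasts, single-cell cloned from an immortalized skin fibroblast line (ATCC CRL-4001) with mNeonGreen knocked in at IL11 as a reporter. The methods speak of positive clones and do not say whether all cells came from the same clone. The knockout and control cells both expressed Cas9 from a lentivirus and received a lentiviral guide RNA, against GLIS3 or named as a non-targeting control. Cells were drug-selected and kept as bulk populations, so a knockout library averaged over cells with different edits or none. Both cytokines were used at 10 ng per ml, started at different times and stopped together, and the series also holds 0, 6 and 12 h and an activation arm with dCas9–VP64. The study states in general that its cell culture experiments used independent biological replicates, but neither the labels nor the methods say that the 3 libraries of a group came from separate transductions. The p-values here rest on the spread within groups over all 24 CRISPRko and control libraries of 0, 6, 12 and 24 h. They do not rest on the 6 libraries alone, and that spread may be technical in part. The labels' cell line field names a GLIS3 knockout for every library, controls included, and the groups were taken from the titles.

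GLIS3 is a Krüppel-like zinc finger transcription factor related to the GLI proteins of Hedgehog signalling, and it can activate or repress its targets. It is best known from the pancreatic β-cell, thyroid and kidney, and inherited loss of GLIS3 causes neonatal diabetes with hypothyroidism. TGFβ drives fibroblasts to deposit matrix and become contractile, and IL-1β acts through NF-κB to induce cytokines and chemokines. The question was which transcripts differ with the GLIS3 guide once both signals have acted for a day.

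The guides are shown because they define the groups, each with the 3 bases before it and the 7 after it, in GRCh38. Capitals mark the guide and the first 3 bases after it are the PAM.
GLIS3 guide: ggtCCACATCGACCAGCGCAAAGgggagga
Control guide: actGCAGACCAATTACAACACACtggagaa
The GLIS3 guide matched 1 site with an NGG PAM, chr9:4117887-4117906 on the minus strand, in coding exon 4 of the 11 exons of GLIS3-202. The cut would fall after 1588 of 2790 coding bases, in codon 530 of 930, so 56.9% of the coding sequence precedes it. The control guide also matched 1 site, chr12:123325581-123325600 on the plus strand, where 19 of its 20 bases lie in coding exon 15 of the 32 exons of SBNO1-203, after 44.9% of the coding bases. SBNO1 encodes a helicase-related nuclear protein. Both groups of cells therefore carried a guide with a genomic target.

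Estimated counts per library summed to 5560364, 2485059 and 4257158 in control and to 8306529, 2761335 and 8542400 in GLIS3 CRISPRko. The libraries were not alike in composition. The 50 genes with the most counts took between 44.1% and 46.4% of each control library, and 44.4%, 39% and 31.4% of GLIS3 CRISPRko replicates 1, 2 and 3. Replicate 3 of GLIS3 CRISPRko stood apart, and calls that are lost without it are named with their values. Fibroblast markers summed to between 51724 and 56247 CPM, a count relative to the total of its library, in control and to between 32572 and 57737 in GLIS3 CRISPRko, with all 11 detected. The summed keratinocyte, endothelial, leukocyte and melanocyte markers stayed under 13 CPM in every library, and DSG3, TP63, CDH5 and PTPRC were at 0 in all 6. Mural markers summed to between 259 and 412 CPM in GLIS3 CRISPRko and between 265 and 306 in control, with DES at 0. In bulk RNA, fewer cells of a type and less RNA per cell cannot be told apart. Levels below are normalized CPM, that is CPM on library sizes scaled by edgeR's TMM method.

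GLIS3 itself was scarce at this time. It was at 1.04, 1.21 and 1.63 normalized CPM in GLIS3 CRISPRko replicates 1, 2 and 3, from 8, 4 and 21 counts, and at 2.47, 2.80 and 3.80 in control, from 13, 6 and 16 counts. On this scale every knockout library lay below every control library. The log2 fold change of -1.17 (SE 0.46) did not pass (edgeR adjusted p = 0.383). The separation rested on the scaling, with a TMM factor of 1.51 for knockout replicate 3. In plain CPM that library was at 2.46, above control replicates 1 and 2 at 2.34 and 2.41. Over the alternatives run the log2 fold change lay between -1.43 and -0.21. A frameshift need not lower the transcript, and counts over the whole gene do not read the edit. This level is therefore a weak check of the knockout. GLIS3 was also lower in every knockout library at the other times, on few counts. It was at 0.144 to 0.395 normalized CPM against 1.45 to 2.16 in control at 0 h. At 6 h it was at 1.37 to 1.61 against 4.42 to 6.47, and at 12 h at 0.933 to 1.57 against 2.18 to 3.60. SBNO1, at 26.4, 23.4 and 27.9 in GLIS3 CRISPRko and 35.4, 29 and 32.1 in control, did not pass either (log2 fold change -0.31). IL11, the reporter's locus, overlapped between the groups, at 6.90, 10.0 and 6.38 against 5.14, 14.5 and 6.18.

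Of 10962 genes tested, 23 differed between the groups at an adjusted p under 0.05 (edgeR quasi-likelihood F test), which is 0.21% of all genes. GLIS3 CRISPRko was higher for 15 genes (0.137%) and lower for 8 (0.073%). Matrix and growth factor genes (COL8A1, MXRA5, PAPPA, IGFBP4), vascular ligand and receptor genes (DLL4, FLT1) and SYNPO2 of the cytoskeleton were among those that rose, and TGFBI, PSAT1, DDIT4 and BIRC3 among those that fell. The change exceeded 1 on the log2 scale for 10 of the 15 and 4 of the 8. In all 23 the 3 knockout libraries lay apart from the 3 control libraries, as they did for 769 genes upwards (7.02% of all) and 709 downwards (6.47%). Over all genes, 5722 had a fold change above 0 and 5240 below, with a median log2 fold change of 0.02, and 1096 had an unadjusted p under 0.05, 624 higher (5.69%) and 472 lower (4.31%). With limma on log2(TPM + 1), which differs from the main fit in values, scaling and test together and moved the median of all genes to 0.35, 21 genes were called higher and 1 lower. DESeq2 size factors in edgeR, a change of scaling alone, left the split at 15 and 8, and loess offsets gave 23 and 9. Single libraries decided much of the count. Without replicate 3 of GLIS3 CRISPRko 17 genes were called higher and 1 lower. Of the 23, 10 passed then: SERPINB7, MOXD1, ZP4, PPP1R3C, PSAT1, COL8A1, MXRA5, DLL4, IGFBP4 and SYNPO2. Those 10 were not equally firm in other settings. Over 15 alternatives SERPINB7, MOXD1 and PPP1R3C passed in all, ZP4 and COL8A1 in 14 and PSAT1 in 13. DLL4 and SYNPO2 passed in 10, MXRA5 in 9 and IGFBP4 in 8. The genes lost without knockout replicate 3 passed in between 6 (such as FLT1) and 10 (TGFBI). Without replicate 1 of GLIS3 CRISPRko 104 were called, 50 higher and 54 lower. Leaving out knockout replicate 2 gave 8, and leaving out control replicate 1, 2 or 3 gave 9, 6 or 8.

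**Figure D1:**
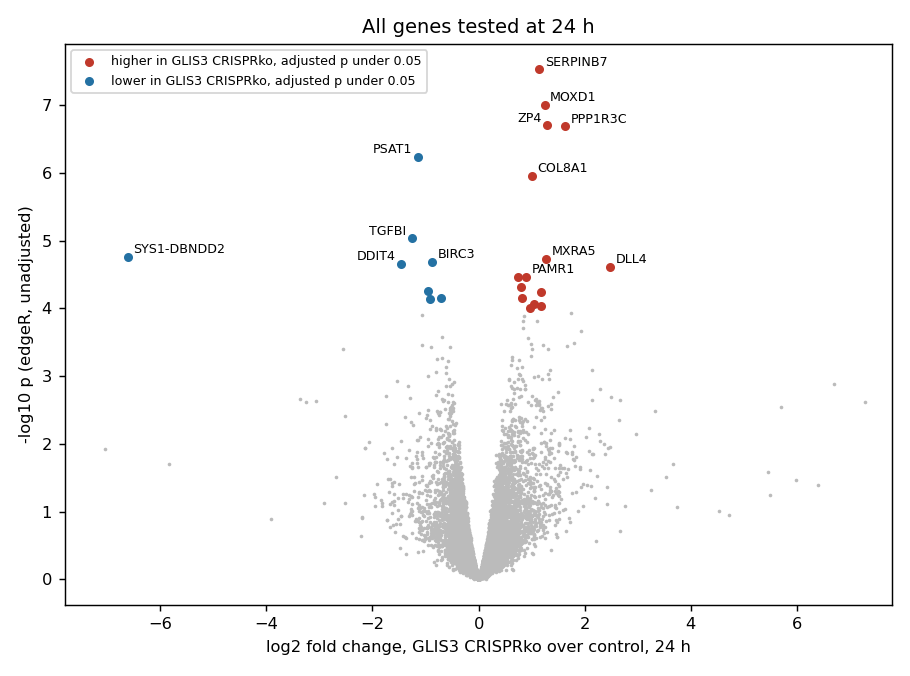
Log2 fold change at 24 h (x axis, GLIS3 CRISPRko over control) against -log10 of the unadjusted edgeR p (y axis) for the 10962 genes tested. Red points are the 15 genes called higher and blue points the 8 called lower at an adjusted p under 0.05. SYS1-DBNDD2, at the far left, had 0 counts in all 3 knockout libraries, so its position there depends on the fit.

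Among genes of the extracellular matrix, COL8A1 and MXRA5 rose and TGFBI and RCN3 fell. COL8A1 encodes the α1 chain of type VIII collagen, a short-chain network collagen of vessel walls and basement membranes. It was at 65.0, 58.9 and 60.5 normalized CPM in GLIS3 CRISPRko and 30.8, 36.5 and 25.9 in control (log2 fold change 1.00, SE 0.17, edgeR adjusted p = 0.00201). MXRA5, a secreted adhesion-associated protein with leucine-rich and immunoglobulin repeats, was at 35.9, 49.8 and 30.8 against 16.6, 13.1 and 16.6 (log2 fold change 1.27, SE 0.25, edgeR adjusted p = 0.0218). The lowest knockout library was well above the highest control library for both genes. TGFBI, a TGFβ-induced matrix protein that binds integrins and collagens, fell in every knockout library. Its libraries were at 356, 316 and 260 in GLIS3 CRISPRko and 717, 834 and 676 in control (log2 fold change -1.26, SE 0.24, edgeR adjusted p = 0.0145). RCN3, a calcium-binding chaperone of the endoplasmic reticulum involved in collagen production, was at 95.2, 81.6 and 66.1 against 135, 135 and 126 (log2 fold change -0.71, SE 0.15, edgeR adjusted p = 0.0396). Replicate 3 was the lowest knockout library for both genes that fell, and without it neither passed, at -1.14 for TGFBI and -0.57 for RCN3.

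The insulin-like growth factor axis held a pair of called genes with linked biochemistry. PAPPA encodes pappalysin-1, the secreted protease that cleaves IGFBP4, and IGFBP4 binds IGF and is released from it by that cleavage. PAPPA was at 23.1, 25.5 and 40.7 normalized CPM in GLIS3 CRISPRko and 13.7, 11.2 and 14.3 in control (log2 fold change 1.18, SE 0.26, edgeR adjusted p = 0.0372). Its highest value was in knockout replicate 3, and without that library it was at 0.87 and did not pass. IGFBP4 was at 73.5, 93.5 and 62.6 against 47.6, 40.2 and 47.6 (log2 fold change 0.74, SE 0.15, edgeR adjusted p = 0.0267). STC2, an inhibitor of pappalysin, was at 111, 104 and 96.3 against 80.7, 78.1 and 71.1, apart in every library but not called (log2 fold change 0.44, edgeR adjusted p = 0.298). Of the 13 tested genes of the axis 8 had a fold change above 0 and 5 below, with a median of 0.13. IGFBP3 and IGFBP6, at -0.87 and -0.60, had unadjusted p-values of 0.0155 and 0.0138 and were not called.

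Receptors, ligands and signalling enzymes made up another group. DLL4, a Notch ligand of endothelial tip cells, had the highest fold change of the 15, on few counts. It was at 4.04, 11.2 and 3.74 normalized CPM in GLIS3 CRISPRko (31, 37 and 48 counts) and 1.90, 0.467 and 0.238 in control (10, 1 and 1 counts), with a log2 fold change at 2.48 (SE 0.50, edgeR adjusted p = 0.0223). Knockout replicate 2 was far above the other knockout libraries. Without that library DLL4 did not pass, nor without control replicate 2 or 3, nor with edgeR or DESeq2 on only the 6 libraries. FLT1, the VEGF receptor VEGFR1, which is also made as a soluble decoy, was far tighter, at 38, 41.9 and 40.9 against 22.5, 21 and 24.7 (log2 fold change 0.81, SE 0.18, edgeR adjusted p = 0.0396). PIK3IP1, a transmembrane inhibitor of PI3K, was at 22.4, 39.4 and 34.9 against 17.9, 12.2 and 15.5 (log2 fold change 1.04, SE 0.23, edgeR adjusted p = 0.0454). The endothelial markers CDH5 and KDR were at 0 in all 6 libraries, while TEK was at 1.44 to 6.67 CPM and EGFL7 at 0.235 to 3.28. PECAM1, VWF and CLDN5 did not exceed 1.45 CPM. Summed endothelial markers were at 3.25 to 10.3 CPM in GLIS3 CRISPRko and 3.60 to 4.23 in control. BIRC3, an NF-κB target and ubiquitin ligase that limits cell death, fell. Its libraries were at 23.4, 17.6 and 20.01 against 37.3, 36 and 39.7 (log2 fold change -0.88, SE 0.18, edgeR adjusted p = 0.0218). YES1, a SRC-family kinase, was at 17.2, 6.98 and 13.5 against 26.3, 26.2 and 24.5 (log2 fold change -0.96, SE 0.21, edgeR adjusted p = 0.0372). For YES1 knockout replicate 2 was the lowest, from 23 counts. Without knockout replicate 3, FLT1, PIK3IP1, BIRC3 and YES1 were at 0.80, 0.96, -0.85 and -0.97 and did not pass (edgeR adjusted p = 0.118, 0.19, 0.0905 and 0.112).

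Genes of metabolism and stress moved in both directions. PSAT1, the aminotransferase of serine synthesis, had the smallest p of the genes that fell. It was at 25.5, 29.7 and 31.1 normalized CPM in GLIS3 CRISPRko and 65.3, 60.8 and 65.2 in control (log2 fold change -1.15, SE 0.18, edgeR adjusted p = 0.00126). DDIT4 (REDD1), a stress-induced inhibitor of mTORC1, was at 19.3, 16.1 and 10.4 against 44.2, 44.9 and 35.9 (log2 fold change -1.46, SE 0.29, edgeR adjusted p = 0.0218). PPP1R3C, which targets protein phosphatase 1 to glycogen and favours glycogen synthesis, rose from 8.37, 6.08 and 8.80 in control to 22.5, 24.3 and 27 (log2 fold change 1.63, SE 0.25, edgeR adjusted p = 0.000565). MOXD1, a copper-dependent monooxygenase-like protein of the secretory pathway, was at 42.3, 53.7 and 54.9 against 19.4, 24.8 and 20.4 (log2 fold change 1.24, SE 0.18, edgeR adjusted p = 0.000538). These 4 genes had no overlap and little scatter within a group, apart from DDIT4 in the knockout, which was at -1.21 without replicate 3 and then did not pass.

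The other called genes have varied roles. SERPINB7, an intracellular serine protease inhibitor best known from the epidermis, had the smallest p of all genes, at 123, 129 and 109 normalized CPM against 53.7, 52.8 and 56.6 (log2 fold change 1.15, SE 0.16, edgeR adjusted p = 0.000327). The keratinocyte markers DSG3, DSC3, KRT1, KRT5 and TP63 were at 0 in all 6 libraries. KRT10 was at 6.44 to 12.0 CPM, KRT15 at up to 1.09, and KRT14 and CDH1 at up to 0.402. ZP4, a zona pellucida glycoprotein named for the oocyte coat, was at 72.8, 88.3 and 64.1 against 30.1, 33.7 and 28.5 (log2 fold change 1.29, SE 0.19, edgeR adjusted p = 0.000565). SYNPO2, an actin-binding protein of contractile cells, was at 178, 188 and 166 against 99.9, 114 and 93.4 (log2 fold change 0.80). PAMR1, a secreted peptidase-like protein associated with muscle regeneration, was at 35.8, 50.4 and 45.3 against 23, 23.4 and 23.5 (log2 fold change 0.90). ADIRF, a small adipogenesis-related factor, was at 14.2, 10.6 and 18 against 7.61, 5.14 and 6.18 (log2 fold change 1.17). MGAT5, the Golgi enzyme that branches N-glycans, was at 25.9, 27.3 and 53.6 against 18.5, 17.8 and 19.3 (log2 fold change 0.97). Knockout replicate 3 held the high value for MGAT5, which was at 0.52 without it and did not pass. ZZZ3, a histone-reading subunit of the ATAC acetyltransferase complex, fell, at 21.5, 12.1 and 17.4 against 26.3, 31.3 and 41.1 (log2 fold change -0.92). Adjusted p-values from edgeR for SYNPO2, PAMR1, ADIRF, MGAT5 and ZZZ3 lay between 0.0267 and 0.0474. Without knockout replicate 3, PAMR1, ADIRF and ZZZ3 were at 0.87, 0.96 and -0.91 and did not pass either (edgeR adjusted p = 0.0937, 0.323 and 0.151).

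SYS1-DBNDD2 is a readthrough transcript on chromosome 20 whose exons are shared with SYS1 and DBNDD2, and the quantification could split reads among them. It had 0 counts in all 3 knockout libraries and 12, 4 and 12 in control, which makes it at least 18.5-fold lower against a floor of 3 counts over the group (edgeR adjusted p = 0.0218). SYS1 and DBNDD2, each at more than 20 counts per library, were at 0.33 and 0.25 (edgeR adjusted p = 0.695 and 0.657). The readthrough's counts were not stable over the series. At 0 h it had between 0 and 4 counts in GLIS3 CRISPRko and 0 in every control library, and at 6 h between 5 and 10 against between 0 and 4. Its call at 24 h is reported as uncertain, and was lost without knockout replicate 3 (edgeR adjusted p = 0.126).

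**Figure D2:**
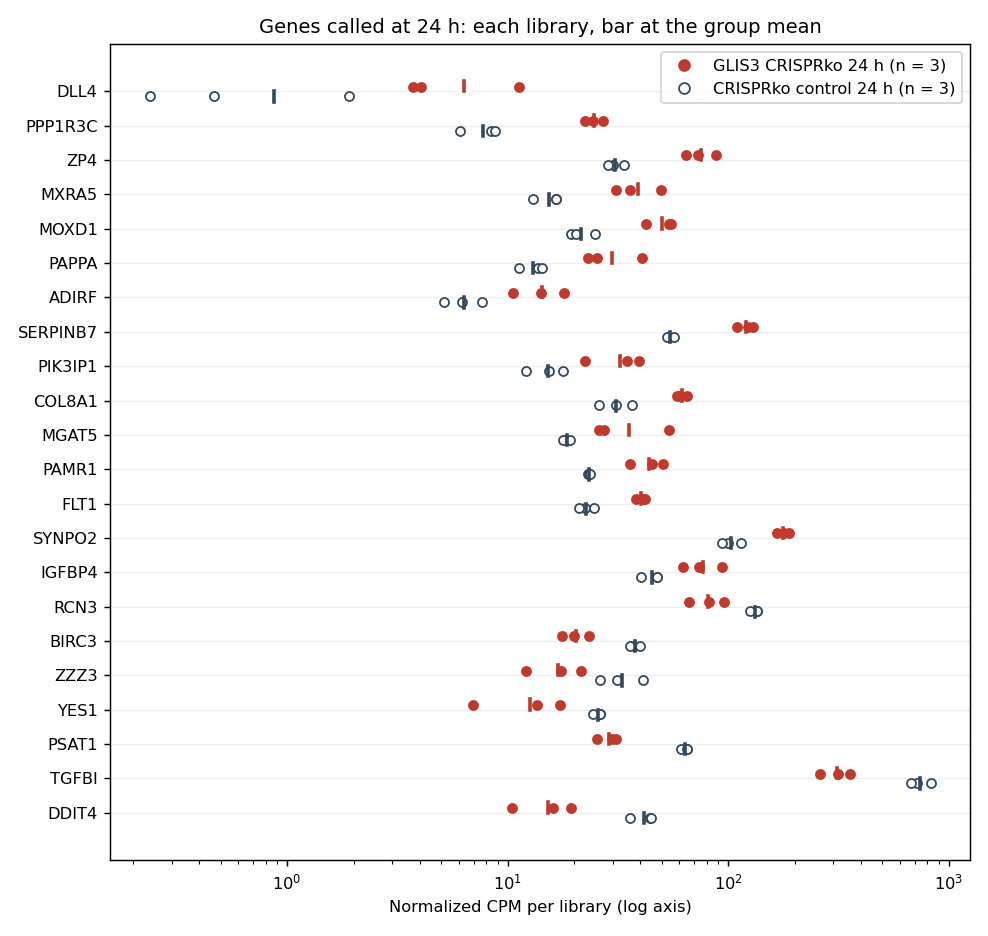
Normalized CPM (x axis, log scale) of 22 of the 23 called genes in each library at 24 h, with filled red points for the 3 GLIS3 CRISPRko libraries, open blue points for the 3 control libraries and vertical bars at the group means. The groups do not overlap for any gene, and DLL4 has the widest scatter, between 0.238 and 1.90 in control and between 3.74 and 11.2 in GLIS3 CRISPRko. SYS1-DBNDD2 is left out because its knockout libraries are at 0.

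The 10 genes next in order of p whose libraries did not overlap had edgeR adjusted p-values between 0.0527 and 0.105. IL1A, the alarmin cytokine that uses the same receptor as IL-1β, was at 7.94, 9.41 and 6.38 normalized CPM in GLIS3 CRISPRko and 2.66, 1.40 and 2.38 in control, from 3 to 14 counts per control library (log2 fold change 1.74, SE 0.40). CPZ, a carboxypeptidase that binds Wnt proteins, was at 18.2, 12.1 and 10.2 against 28, 33.7 and 24.3 (log2 fold change -1.07, SE 0.24). NID2, a basement membrane linker, was at 22.9, 28.2 and 15.9 against 11.4, 11.2 and 13.3 (log2 fold change 0.84, SE 0.20). GFPT2, the rate-limiting step of the hexosamine pathway, was at 53, 70.1 and 52.9 against 34.3, 40.7 and 24.7 (log2 fold change 0.83, SE 0.20). CD68, POLR1A, FANCE, SECISBP2L and ST3GAL5 had log2 fold changes between 0.86 and 1.93, and HSPA13 was at -0.68. None of these 10 passed.

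The same contrast at 0, 6 and 12 h used other libraries of the same 2 cell populations. At those times 33, 35 and 9 genes were called, which is 0.301%, 0.319% and 0.0821% of the genes tested. Of the 15 genes called higher at 24 h, 13 had a fold change above 0 at 0 h and 15 at both 6 and 12 h, and of the 8 called lower, 7, 6 and 8 were below 0. Over all genes the sign at 24 h matched that at 0, 6 and 12 h for 57.2%, 48.9% and 54.4%. SERPINB7, MOXD1 and COL8A1 were called higher at every time. Their log2 fold changes at 0, 6 and 12 h were 0.91, 1.29 and 0.77 for SERPINB7, 0.96, 1.31 and 1.40 for MOXD1, and 0.70, 0.69 and 1.07 for COL8A1. For these 3 genes the difference was present without added cytokines. MXRA5 and PSAT1 were also called at 0 h, at 1.00 and -0.79, DLL4 at 6 h, at 1.85, and TGFBI at 0 and 6 h, at -1.27 and -1.16. The other 16 genes, 10 higher and 6 lower, were called at 24 h and at no other time.

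A call at one time alone does not show that the effect differs between times, so the difference was tested. Against 0 h, 0 of 10962 genes had an adjusted p under 0.05 in edgeR and 616 an unadjusted p under 0.05 (5.62%), and DESeq2 called 1, SYS1-DBNDD2. Against 6 h 5 genes passed and against 12 h 0. Among the called genes PPP1R3C came nearest after SYS1-DBNDD2. Its log2 fold changes were 0.11, 0.33, 0.26 and 1.63 at 0, 6, 12 and 24 h, a difference of 1.52 (SE 0.35) between 24 and 0 h with an unadjusted p of 0.000115 and an adjusted p of 0.421 (edgeR). FLT1 was at -0.04, 0.39, 0.38 and 0.81 (difference 0.85, unadjusted p = 0.00204, adjusted p = 0.836 in edgeR), and ADIRF at 0.39, 0.08, 0.48 and 1.17 (difference 0.78, unadjusted p = 0.0317, adjusted p = 0.86 in edgeR). None of the 3 passed the adjustment. ZP4 could not be compared at 0 h, where it was at 0 in every knockout library and at a mean of 0.045 normalized CPM in control.

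The cytokine response of each population, 24 h minus 0 h, shares libraries with the 24 h contrast and is given only beside it. ZP4 rose from near 0 in both, by 8.54 on the log2 scale in control and 11.57 in GLIS3 CRISPRko, fitted values that rest on counts near 0 at 0 h. TGFBI rose by 1.10 and 1.11, BIRC3 by 3.12 and 3.44, DDIT4 by 2.45 and 1.81, RCN3 by 1.15 and 0.91, PAPPA by 1.89 and 2.04, and PIK3IP1 by 1.93 and 2.07 in control and GLIS3 CRISPRko, all past the threshold in edgeR. MXRA5, COL8A1, PAMR1 and MOXD1 fell in both, with -1.80 and -1.53, -1.07 and -0.76, -0.97 and -0.80, and -0.82 and -0.54. The genes that differed by guide thus included some that TGFβ and IL-1β raised and some that they lowered. SERPINB7, IGFBP4, SYNPO2, YES1, PSAT1, DLL4 and ZZZ3 passed in neither population. PPP1R3C rose in GLIS3 CRISPRko, by 1.22 (edgeR adjusted p = 0.000184), and was at -0.30 in control (edgeR adjusted p = 0.607), and FLT1 rose by 1.17 in GLIS3 CRISPRko and was at 0.32 in control (edgeR adjusted p = 5.09e-06 and 0.353). ADIRF and MGAT5 passed in control alone, at -1.29 and -0.68, and were at -0.52 and -0.22 in GLIS3 CRISPRko (edgeR adjusted p = 0.124 and 0.502).

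In the activation arm the titles and descriptions of the libraries contradict each other, and the names used here, VP64_A and VP64_Ctrl, come from the descriptions. With the titles VP64_A would be the control, and every direction below would turn. GLIS3, the gene to be activated, was higher in VP64_A at 24 h, at 27.5 ± 2.90 normalized CPM (SD, n = 3) against 3.25 ± 0.406 in VP64_Ctrl, which is the order of the descriptions and not of the titles. Of 10980 genes tested in that arm at 24 h, 219 were called higher (1.99%) and 234 lower (2.13%) in VP64_A. The controls of the arms, each normalized within its own arm, differed in level at 24 h. TGFBI had a mean of 742 normalized CPM in CRISPRko control and 45.8 in VP64_Ctrl, and RCN3 132 and 4.98. SERPINB7 went the other way, at 54.4 and 181. The arms are therefore not the same starting state under opposite edits. Of the 15 genes higher in GLIS3 CRISPRko, 10 were called lower in VP64_A, 1 was called higher and 4 did not pass. The log2 fold changes of the 10 were -2.84 for DLL4, -2.50 for SYNPO2, -2.24 for COL8A1, -1.97 for ADIRF, -1.91 for ZP4, -1.51 for MOXD1, -1.35 for PAPPA, -0.96 for FLT1, -0.90 for PPP1R3C and -0.68 for SERPINB7. PAMR1 was the exception, higher in GLIS3 CRISPRko (0.90) and also in VP64_A (0.66, edgeR adjusted p = 0.0133). Of the 8 genes lower in GLIS3 CRISPRko, TGFBI and DDIT4 were called higher in VP64_A, at 1.51 and 1.28, BIRC3 was called lower at -1.29, and 5 did not pass. PSAT1 was at 0.55 (SE 0.19, edgeR adjusted p = 0.122) and YES1 at 0.68 (SE 0.27, edgeR adjusted p = 0.196). Among the next 10 genes, 4 passed in VP64_A. CPZ at 3.45, GFPT2 at -2.10 and IL1A at -1.04 were opposite in sign to GLIS3 CRISPRko, and NID2 at 0.73 (edgeR adjusted p = 0.0135) had the same sign.

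**Figure D3:**
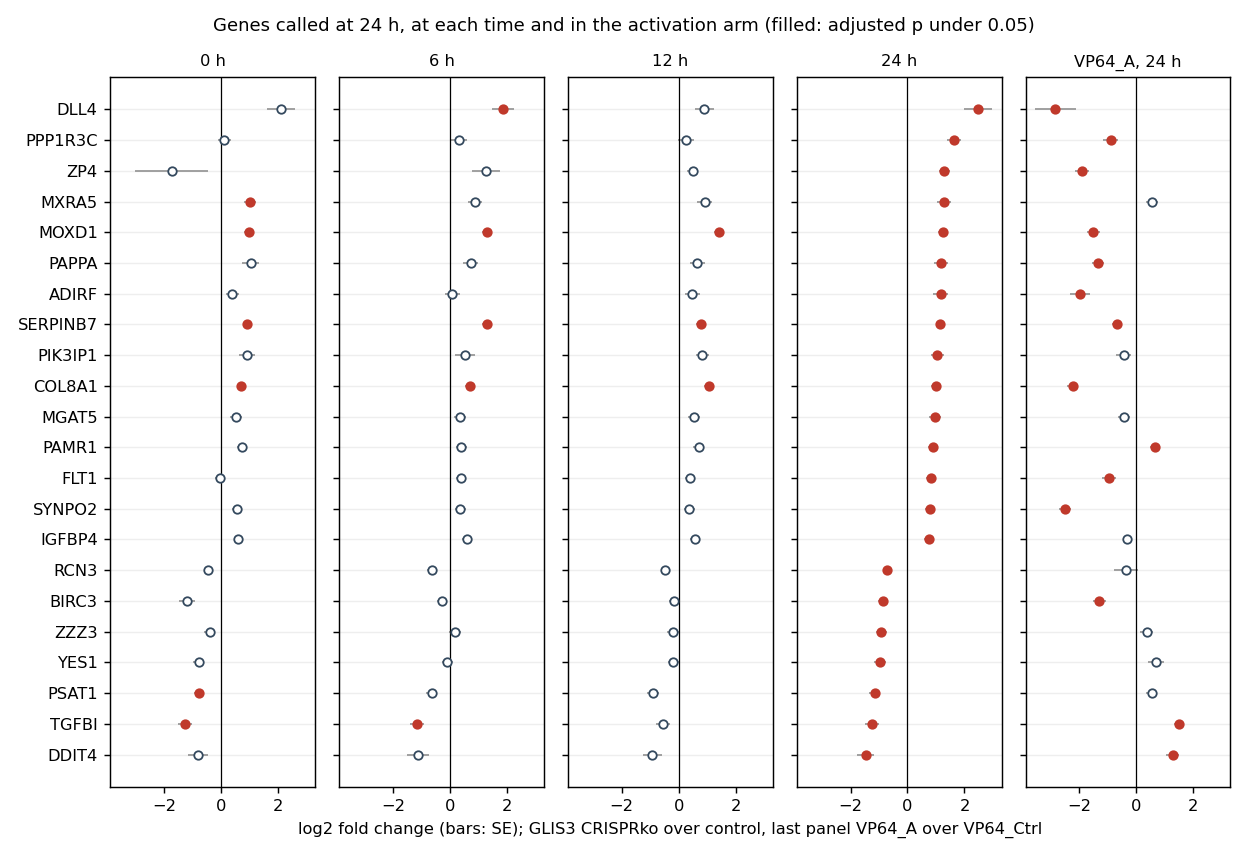
Log2 fold change (x axes, bars are SE) of 22 called genes for GLIS3 CRISPRko over control at 0, 6, 12 and 24 h and, in the last panel, for VP64_A over VP64_Ctrl at 24 h. Filled points had an adjusted p under 0.05 in edgeR. SERPINB7, MOXD1 and COL8A1 are filled at all 4 times and lie on the other side of 0 in the last panel. PAMR1, MXRA5, BIRC3 and RCN3 keep their side. MXRA5 and RCN3 did not pass in that panel, and RCN3 was low there, at a mean of 3.96 normalized CPM in VP64_A and 4.98 in VP64_Ctrl.

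Gene lists were described by their counts and medians at 24 h, beside a median of 0.02 over all genes. The list of ATF4 targets and serine synthesis genes, which cells use to make serine, glycine and one-carbon units and to answer amino acid stress, had 23 of 28 tested members below 0 and a median of -0.30. PSAT1 and DDIT4 fell, and 13 members in all had an unadjusted p under 0.05 below 0, against 1 above (STC2). PHGDH, the first enzyme of serine synthesis, was at 38.8, 61.0 and 46.7 normalized CPM in GLIS3 CRISPRko and 64.7, 73.8 and 77.5 in control (log2 fold change -0.58, edgeR adjusted p = 0.223). ASNS, asparagine synthetase, was at 10.0, 8.19 and 7.24 against 21.1, 19.6 and 14.5 (log2 fold change -1.12, edgeR adjusted p = 0.24). PCK2, SHMT2 and MTHFD2, mitochondrial enzymes of the same metabolism, were at -0.78, -0.55 and -0.51 and were not called. Knockout replicates 1, 2 and 3 each lay below all 3 control libraries for 16, 16 and 18 of the 28 genes, against 23.8%, 29.9% and 32.4% of all genes. Without knockout replicate 3 the list stood at 23 below 0, 9 of them with an unadjusted p under 0.05, and a median of -0.26. With limma on log2(TPM + 1), where the median of all genes was 0.35, the list's median was 0.03, below that of all genes. ATF4 itself was at -0.26 (edgeR adjusted p = 0.66). The list did not stay below 0 at every time, with medians of -0.13 at 0 h, 0.09 at 6 h and -0.13 at 12 h. At those times PHGDH was at -0.14, -0.57 and -0.98, and passed at 12 h (edgeR adjusted p = 0.0122), and MTHFD2 was at -0.56, 0.13 and -0.10 and passed at none.

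Interferon-stimulated genes, the antiviral set, had 31 of 45 tested members above 0 and a median of 0.28, and none was called. An unadjusted p under 0.05 was reached by 10 above 0 and 2 below. HERC6 was at 99.6, 106 and 41.3 normalized CPM in GLIS3 CRISPRko and 26.5, 24.8 and 59.0 in control (log2 fold change 1.12, edgeR adjusted p = 0.177). ISG15 was at 303, 304 and 111 against 96.7, 123 and 226 (log2 fold change 0.68, edgeR adjusted p = 0.471). The libraries split by number: replicates 1 and 2 of GLIS3 CRISPRko were high and replicate 3 low, and replicate 3 of control was high and replicates 1 and 2 low. Replicate 3 was the lowest knockout library for 40 of the 45 genes (35.1% of all genes) and the highest control library for 39 (32.7% of all genes). Knockout replicates 1 and 2 lay above all 3 control libraries for 27 and 24 of the 45, against 25.1% and 31.4% of all genes. Knockout replicate 3 lay below all 3 control libraries for 23, against 32.4% of all genes. Without knockout replicate 3, 37 of 47 tested members were above 0, 19 of them with an unadjusted p under 0.05, and the median was 0.55. Without knockout replicate 1 the median was 0.09, so single knockout libraries moved it both ways.

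**Figure D4:**
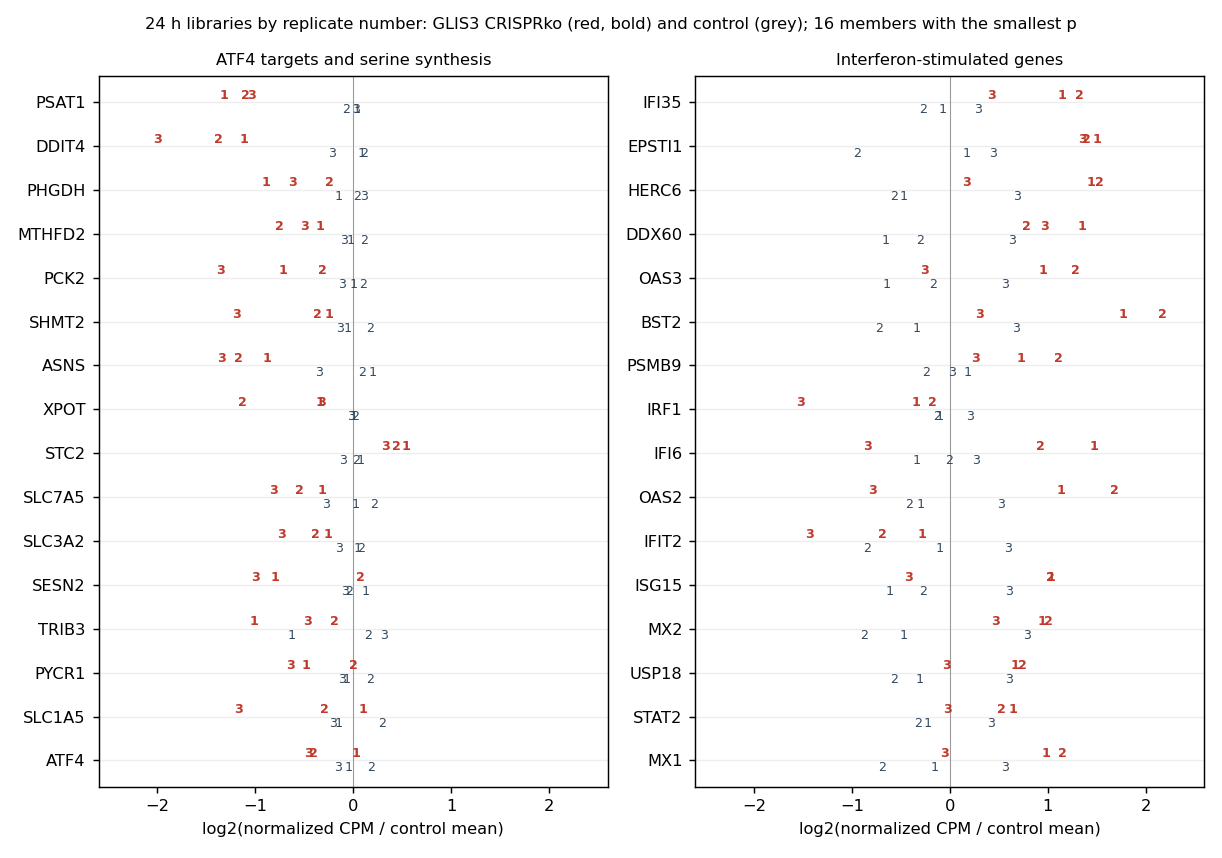
Log2 of normalized CPM over the control mean (x axes) for the 16 members with the smallest p of the ATF4 and serine synthesis list (left) and of the interferon-stimulated list (right). Digits are replicate numbers, red and bold for GLIS3 CRISPRko and grey for control. On the left the knockout digits lie mostly below 0 whatever their number, which the choice of members by small p favours. On the right knockout replicate 3 lies apart from knockout replicates 1 and 2.

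In several lists the summed level differed widely among the knockout libraries. The 21 tested collagens summed to 29237, 14198 and 8897 normalized CPM in GLIS3 CRISPRko replicates 1, 2 and 3 and to 27136, 30729 and 25424 in control, so replicate 1 was within the control range and the others far below it. The collagens had 7 members above 0 and 14 below, with a median of -0.18 and COL8A1 the only call. COL12A1, a fibril-associated collagen, was even across libraries, at 242, 247 and 253 against 179, 173 and 136 (log2 fold change 0.60, edgeR adjusted p = 0.189). COL3A1, a fibrillar collagen, was at 1425, 463 and 501 against 1487, 1613 and 1439 (log2 fold change -0.92, edgeR adjusted p = 0.31). Myofibroblast contractile genes summed to 54543, 38566 and 26836 against 52070, 58447 and 48341, and 6 of 27 were above 0, with a median of -0.31 and SYNPO2 the only call, upwards. With loess offsets, which adjust the scaling to abundance, their median was 0.08. Genes of glycolysis and the hypoxia response summed to 42787, 33366 and 20898 against 41078, 49620 and 41429 (13 above 0 and 19 below, median -0.16), and those of endoplasmic reticulum folding and secretion to 12065, 7228 and 5361 against 10750, 10786 and 9502 (4 above and 21 below, median -0.25). Neither of these last 2 lists had a called gene. The medians of all 4 lists turned above 0 in at least 1 alternative. For the collagens and the endoplasmic reticulum list the highest medians were 0.08 and 0.05. Both came with limma on log2(TPM + 0.1), where the median of all genes was 0.35, so they stayed below it.

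Matrix glycoproteins and proteoglycans had 11 of 33 members above 0, a median of -0.20 and TGFBI as the one call. DCN, the collagen-binding proteoglycan decorin, was at -0.76 and not called at 24 h (edgeR adjusted p = 0.204), and was called lower at 0 and 6 h, at -1.82 and -1.60. COMP, a cartilage matrix protein, was at 0.912, 1.52 and 1.79 normalized CPM against 6.09, 3.74 and 4.28 (log2 fold change -1.74, edgeR adjusted p = 0.223). Metallothioneins and zinc transporters had 10 of 13 members below 0 and the lowest median, -0.51, which was -0.14 without knockout replicate 3. MT1E was at 357, 243 and 233 against 474, 501 and 488 (log2 fold change -0.81, edgeR adjusted p = 0.169). Cell cycle and replication genes had 35 of 44 below 0, 8 with an unadjusted p under 0.05, a median of -0.15 and no call. Among NF-κB subunits and targets 15 of 28 were above 0, with a median of 0.00 and BIRC3 the only call. TGFβ and SMAD signalling genes had 20 of 25 above 0 with a median of 0.17, and p53 targets 19 of 24 with a median of 0.08, neither with a call. The medians of the matrix glycoprotein, cell cycle and NF-κB lists changed sign in at least 1 alternative. For the cell cycle list the highest median was 0.19, with limma on log2(TPM + 0.1), below the 0.35 of all genes there.

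The remaining lists had no called gene apart from those already named. Medians below 0 were found for prostaglandin genes (-0.19, 5 of 12 above 0), the GLI and GLIS family with Hedgehog genes (-0.13, 3 of 8), collagen processing enzymes (-0.12, 9 of 21), chemokines (-0.11, 4 of 11), cytokines and growth factors (-0.04, 13 of 28), NRF2 targets (-0.04, 11 of 24) and cholesterol and fatty acid synthesis (-0.02, 15 of 32). Medians above 0 were found for integrins (0.19, 7 of 11), matrix proteases and inhibitors (0.09, 13 of 20), AP-1 factors (0.07, 6 of 11), TEAD factors and targets (0.05, 15 of 29) and fibroblast surface and identity genes (0.02, 10 of 18). CCL2, a monocyte chemokine, was at 209, 107 and 107 normalized CPM against 274, 252 and 208 (log2 fold change -0.79, edgeR adjusted p = 0.312), and CCL5 at 22.8, 12.4 and 14.3 against 7.99, 5.61 and 9.99 (log2 fold change 1.05, edgeR adjusted p = 0.177). The 13 mitochondrially encoded genes were not analysed here. Of these lists only those of integrins and of matrix proteases kept the sign of their median under all alternatives run. The limma alternatives moved the median of all genes up, to 0.35 with log2(TPM + 0.1). A kept sign therefore favours lists above 0 and does not show that a list was stable.

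**Figure D5:**
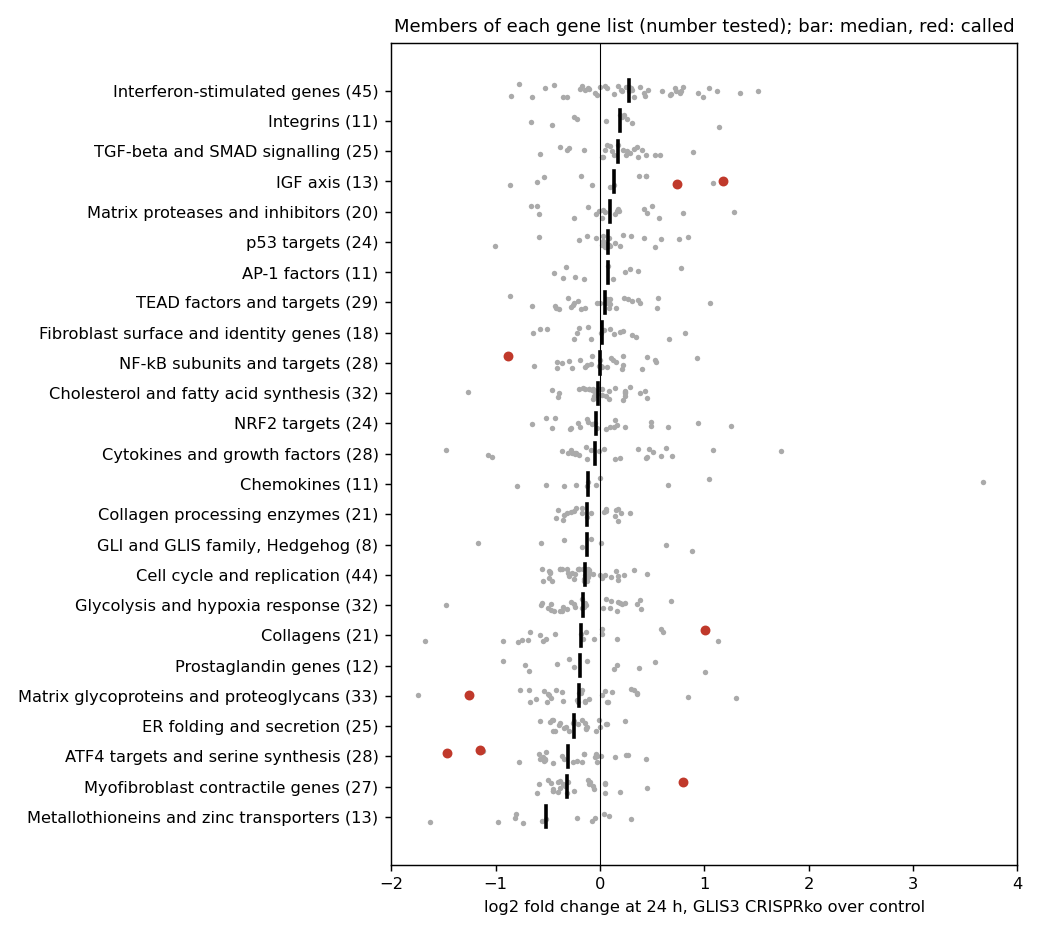
Log2 fold change at 24 h (x axis, GLIS3 CRISPRko over control) of each tested member of 25 gene lists, with a black bar at each list's median and called genes in red. The number of members tested is in parentheses. Medians lie between -0.51 for metallothioneins and zinc transporters and 0.28 for interferon-stimulated genes, and called genes are found in 6 lists.

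RefSeq promoters of GRCh38.p14 were available for 21 of the 23 called genes and were searched over the 250 bases before the start, on both strands. The GLIS core motif TGGGGGGT was in 0 of the 21, against 0.927% of 8308 promoters of tested genes, and the GLI motif GACCACCCA in 0, against 0.193%. The AP-1 motif TGANTCA was in 1 (3.76% of tested promoters) and the TEAD motif GGAATG in 2 (9.46%). The 3 matches are printed because they fall in PAMR1 and SYNPO2, both higher in GLIS3 CRISPRko, with the motif in capitals and its distance before the start.
PAMR1, AP-1, 207 bases before the start, chr11:35530491-35530517, minus strand: tttccccaagTGATTCAggagcatatt
PAMR1, TEAD, 65 bases before the start, chr11:35530350-35530375, minus strand: ccagtggaagGGAATGgagctgagcc
SYNPO2, TEAD, 214 bases before the start, chr4:118850457-118850482, plus strand: tgtagaggatGGAATGgaagcttgtg
A match describes these letters in this window and not a bound site.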

How the data were processed

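The authors sequenced poly(A) RNA from TRIzol lysates as Nextera XT libraries. Per the labels and the methods, the authors used Trim Galore for trimming, SortMeRNA against ribosomal reads, STAR for alignment to GRCh38 and Salmon for quantification. Tool versions, annotation and strand setting are not given in the sources used here. The deposited table of estimated counts carries no scaling between libraries, and 6.2% of its CRISPRko values were not whole and were rounded. The deposited TPM values were scaled by the authors for transcript length and to one total per library, and served only as an alternative. All columns were matched to samples (0 unmatched).

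The 24 CRISPRko libraries were fitted in 8 groups with edgeR 4.0.16 in R 4.3.3, using TMM, filterByExpr (count minimum 10, total minimum 15) and the two-sided quasi-likelihood F test. A gene counted as called when its p, adjusted by Benjamini and Hochberg across the 10962 genes tested, was under 0.05. The authors' own analysis used DESeq2, run here (1.42.0) as an alternative, as was limma 3.58.1 on log2 TPM with a pseudocount of 1 or 0.1. The pipeline was tested on simulated counts.

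Named genes were GLIS3, SBNO1 and IL11, every called gene, the 10 next genes by p whose libraries did not overlap, and called members and up to 4 members with the smallest p of each gene list. SYS1, DBNDD2, ASNS, PCK2, SHMT2, ATF4, ISG15, COL3A1 and COMP were chosen after their values were seen. The 27 lists, the cell type markers and the comparison itself were chosen with earlier results of these data known. Listed genes were sought by symbol, and some symbols were absent from the deposited counts, so those genes were not assessed. Of the 35 genes of the ATF4 list 30 were found, without AARS1, GARS1, WARS1, SARS1 and EPRS1. CCN1, CCN2 and CXCL8 of other lists were also among those not found. The main fit has no block, since the methods name none. Deviations of same-numbered knockout and control libraries correlated at 0.0797, 0.100 and 0.0132, and those of other pairs at -0.132 to 0.0541. With 3 libraries in a group these correlations cannot decide whether replicate numbers pair the libraries. Gene positions are from GENCODE 44 (GRCh38) and promoters from RefSeq. One gene is not reported here.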

Additional observations from a re-analysis of the deposited data

How the results depend on the processing

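The count of 23 called genes was 35 with DESeq2 over 24 libraries, 13 with DESeq2 on only the 6 libraries, 9 with edgeR on only the 6 libraries, 92 without a filter on low counts, 13 with limma on log2(TPM + 0.1) (12 higher and 1 lower), and 1096 at an unadjusted p under 0.05, a setting added after seeing the data. With limma on log2(TPM + 1) it was 22, with loess offsets 32, at an adjusted p under 0.10 32, and with DESeq2 size factors 23. Leaving out 1 library at a time gave between 6 and 104. It was 9, 6 and 8 without control replicates 1, 2 and 3, and 104, 8 and 18 without GLIS3 CRISPRko replicates 1, 2 and 3. The cause of these shifts was not tested. The direction of the 23 genes held in all alternatives run, and 3 of them, SERPINB7, MOXD1 and PPP1R3C, were called in all. Of 102 named genes 3 turned. ABCC4 was at 0.0585 and 0.0716 with limma on log2(TPM + 1) and log2(TPM + 0.1), SBNO1 at 0.0376 and 0.0423, and IL11, at -0.38 to 0.42 when 1 library was left out, at 0.32 and 0.38 with limma, 0.42 without control replicate 2 and 0.06 without GLIS3 CRISPRko replicate 3. The difference between 24 and 0 h, with 0 genes in edgeR, gave 1 gene with DESeq2, 1 with limma on log2(TPM + 0.1) and 21 without a filter on low counts.

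With the replicate number as a block 24 genes were called, 22 of them among the 23, and the difference between 24 and 0 h gave 0. Not every library correlated best with its own number, since knockout replicate 3 correlated best with control replicate 1 (0.0541).

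Depth limits scarce genes most. GLIS3 rests on 4 to 21 counts per library and DLL4 on 1 to 10 in control, and replicate 2 had the fewest counts in both groups.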
